A study of Mus musculus with 27 samples.

Results

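Imprinted genes are expressed mainly from the maternal or the paternal copy, because DNA methylation set in the egg or the sperm marks the 2 copies differently. A list of 37 mouse imprinted genes was followed through fetal lung, with Igf2, Igf2r and Dcn left out of the list. A gene was measured through every array probe whose annotated symbol was that of a list member. Of the 37 genes, 34 had at least 1 probe, 91 probes in all among the 45281 on the array. The genes H19, Snrpn and Zrsr1 had no probe under their symbol and were not analysed here. A total of 26 genes, through 55 probes, passed the detection filter, which asked for a detection p under 0.05 on 6 or more of the 9 arrays of some group. Of the listed genes, 17 are known to be expressed from the maternal copy, of which 14 passed, and 19 from the paternal copy, of which 11 passed. Gnas, whose promoters differ in the copy they use, also passed.

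The samples were left lung lobes of male fetuses from a C57BL/6 X BALBc cross, taken at day 18 of gestation. Control fetuses developed in naturally ovulating females and were never transferred. In the group called EG in vitro, blastocysts derived in vitro were transferred to pseudopregnant females, and in the group called EG in vivo the transferred blastocysts had developed in vivo. There were 3 pools per group, each run on 3 technical arrays, which makes 27 bead arrays, and the labels do not give the number of fetuses or litters in a pool. Nothing says that the pools came from separate litters, so the p-values measure only the spread between these pools. The control group differs from both transfer groups in transfer and in ovulation and mating history together, and the effects of these cannot be told apart.

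Imprinting rests on imprinting control regions, which keep their parental methylation through the wave of demethylation in the early embryo. That window falls in the days when embryos are cultured and transferred, and imprinted genes are therefore often examined after such procedures. Many paternally expressed genes promote fetal growth, and several maternally expressed genes restrain it. The arrays measured total RNA of a gene, not the RNA of either parental copy, and DNA methylation was not measured.

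The labels and the lung identity of the pools were checked first. Xist, the RNA of the inactive X chromosome of female cells, had a log2 signal of 10.90 in control pool 1, although all pools are labelled male. It was detected at 5.45 and 5.41 in EG in vitro pools 1 and 2, and it lay between 4.56 and 4.83, undetected, in the others. Every one of the 27 arrays detected Eif2s3y, Kdm5d and Uty, which lie on the Y chromosome. Counts are therefore also given without control pool 1 and without all 3 pools that detected Xist. The third pool of each group was dimmer than the other pools, with median raw signals of 117 to 122 against 145 to 167. Technical arrays of a pool correlated at 0.989 to 0.996.

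The make-up of the tissue RNA also differed between controls and transfers. Of 10 lung epithelial markers, 6 were lower in both transfer groups, namely Sftpa1, Sftpb, Sftpc, Sftpd, Scgb1a1 and Ager. Nkx2-1, Foxa2, Cdh1 and Epcam were not called. They differed by -0.09, -0.02, -0.34 and 1.32 in EG in vitro and by -0.10, -0.06, -0.27 and 0.85 in EG in vivo. The summed signal of all 10, in which the brightest genes weigh most, was 117192 to 128237 in controls. It was 28366 to 32472 in EG in vitro pools and 31932 to 35106 in EG in vivo pools. Epcam was detected on 6 of 9 control arrays, 9 EG in vitro arrays and 8 EG in vivo arrays, and the other epithelial markers on every array. All 5 measured cell cycle genes were higher in both transfer groups, with sums of 2561 to 3144 in controls, 15772 to 18800 in EG in vitro pools and 15865 to 16334 in EG in vivo pools. Of 6 endothelial markers, 5 were lower in EG in vitro, and all 6 were called lower in EG in vivo, counting Kdr. Kdr was detected on 6 control arrays, 1 EG in vitro array and 2 EG in vivo arrays. It passed the detection filter only through the controls, where it was higher, so no test is read from it. Of 10 mesenchymal markers, 4 were lower in each. All 4 measured heart muscle genes were lower, with sums of 4434 to 5730 in controls, 1008 to 1665 in EG in vitro pools and 1148 to 2098 in EG in vivo pools, as was the neural gene Stmn2, by -1.55 and -1.33. The embryonic globin gene Hbb-y was higher by 4.66 and 4.44 on the log2 scale, and the red cell gene Alas2 was lower. In whole tissue, fewer cells of a type and less RNA per cell cannot be told apart. The part of these shifts in the values of the imprinted genes was not tested.

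Promoter sequence was examined next because CpG dinucleotides carry the methylation that imprinting uses. Of the 37 genes, 30 matched the RefSeq promoter table of build GRCm38.p6, with 45 annotated starts. In the 250 bases before the start, these windows held a median of 10 CpG, against 6 over all 32851 windows of that length in the table. The median observed over expected CpG ratio was 0.608 for the imprinted genes and 0.373 over all windows. The hexamer TGCCGC, which is the core recognised by the imprint-protecting zinc finger protein ZFP57, was searched on both strands. It occurred in 6 of 45 windows (13.3%), in Copg2, Meg3, Mest, Plagl1 and Zim1, against 8.7% of all windows. The palindrome GGGGCCCC, the type of motif bound by the imprinted zinc finger protein PLAGL1, occurred in 3 windows (6.7%), before Peg3, Ppp1r9a and Rasgrf1, against 0.9% of all windows. The 2 motifs do not overlap each other in letters. These matches describe the letters of the windows and do not show binding.

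The 5 windows printed here belong to genes whose signal changed and which span the range of CpG content, from 0 in Slc22a18 to 40 at the upstream start of Grb10. They lie at chr2:157559828-157560077 on the plus strand for Nnat, chr11:12037421-12037670 on the minus strand for Grb10, chr7:62348027-62348276 on the plus strand for Ndn, chr9:89909525-89909774 on the plus strand for Rasgrf1 and chr7:143473539-143473788 on the plus strand for Slc22a18, all in GRCm38.p6. Each is written in the direction of the gene, as the 250 bases before the annotated start, with every CpG in capitals.
Nnat: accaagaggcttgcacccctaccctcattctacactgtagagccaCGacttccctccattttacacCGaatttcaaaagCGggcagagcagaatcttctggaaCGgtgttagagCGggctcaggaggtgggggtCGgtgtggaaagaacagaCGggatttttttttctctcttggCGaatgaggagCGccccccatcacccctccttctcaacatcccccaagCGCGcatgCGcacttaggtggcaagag
Grb10: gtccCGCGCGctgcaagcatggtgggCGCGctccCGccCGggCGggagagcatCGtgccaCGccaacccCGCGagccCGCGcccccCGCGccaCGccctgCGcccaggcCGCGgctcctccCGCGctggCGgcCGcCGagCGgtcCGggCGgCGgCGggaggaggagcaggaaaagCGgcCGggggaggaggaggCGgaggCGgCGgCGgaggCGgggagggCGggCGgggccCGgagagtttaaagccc
Ndn: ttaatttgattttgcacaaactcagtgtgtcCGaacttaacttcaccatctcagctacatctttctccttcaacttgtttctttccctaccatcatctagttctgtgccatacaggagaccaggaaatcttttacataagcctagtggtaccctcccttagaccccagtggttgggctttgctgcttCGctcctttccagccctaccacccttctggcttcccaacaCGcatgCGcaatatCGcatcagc
Rasgrf1: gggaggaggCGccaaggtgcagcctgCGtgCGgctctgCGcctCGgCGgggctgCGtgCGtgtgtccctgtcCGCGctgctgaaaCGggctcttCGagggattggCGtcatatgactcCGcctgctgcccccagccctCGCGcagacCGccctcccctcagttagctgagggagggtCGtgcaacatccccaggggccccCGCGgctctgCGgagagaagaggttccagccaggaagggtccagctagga
Slc22a18: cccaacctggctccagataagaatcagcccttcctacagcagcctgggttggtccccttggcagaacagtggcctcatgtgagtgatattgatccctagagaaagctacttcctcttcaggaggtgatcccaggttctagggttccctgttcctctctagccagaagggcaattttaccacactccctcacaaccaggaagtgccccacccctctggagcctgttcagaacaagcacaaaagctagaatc
The Nnat window held 12 CpG, the Rasgrf1 window 21 and the Ndn window 5. Genes that rose and genes that fell were both found among CpG-rich and CpG-poor windows.

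The first question was which imprinted genes differed between transferred fetuses and controls. Against controls, EG in vitro had 7 imprinted genes higher and 3 lower among the 26 measured, by limma at an adjusted p under 0.05. The higher genes were Grb10, Commd1, Tssc4, Nap1l4, Ndn, Impact and Nnat, and the lower genes were Rasgrf1, Slc22a18 and Ppp1r9a. These 10 genes were 38.5% of the 26, where 44.8% of all 11945 genes tested were called in that comparison, 21.8% higher and 23.0% lower. EG in vivo had the same 7 genes higher and the same 3 lower, and in addition Meg3 lower. These 11 genes were 42.3% of the 26, against 43.4% of all genes, 22.2% higher and 21.2% lower. The share of imprinted genes called was thus near that of genes in general in both comparisons. The comparisons share the 3 control pools, so they are not independent of each other.

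An unadjusted p under 0.05 was reached by 11 imprinted genes in EG in vitro, where 52.7% of all genes reached it, and by 14 in EG in vivo, where 51.7% did. A change of at least 2-fold was called for 3 genes in each comparison, Nnat, Rasgrf1 and Slc22a18. That is 3 of 26, where 20.7% of all genes were called with such a change in EG in vitro, against 19.1% in EG in vivo. The pools of the groups did not overlap for 13 of 26 genes in EG in vitro, against 57.4% of all genes, and for 17 in EG in vivo, against 53.3%. Rtl1, which passed the detection filter only through the transfer groups, is among the 14 and among both counts of pools without overlap.

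Without control pool 1 the counts were 9 in EG in vitro, with Impact lost, and 10 in EG in vivo, with Meg3 lost, where 37.7% and 36.4% of all genes were called. Without all 3 pools that detected Xist, which left 2 control pools, 1 EG in vitro pool and 3 EG in vivo pools, the counts fell to 1 and 5, where 12.8% and 23.2% of all genes were called. The lone pool was then assumed to vary like the others. Grb10, Tssc4, Ndn and Rasgrf1 remained called in EG in vivo, and Nnat through another of its probes. That probe was the brightest Nnat probe in the pools left, so it stood for Nnat in both comparisons of this setting. Every gene called in the full data kept its direction there. With the replicate number as a block, a pairing that no label states, the counts rose to 16 and 17, and no call was lost. The share of all genes called was then 60.0% and 58.4%, and Rtl1 was among the added imprinted genes.

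**Figure D1:**
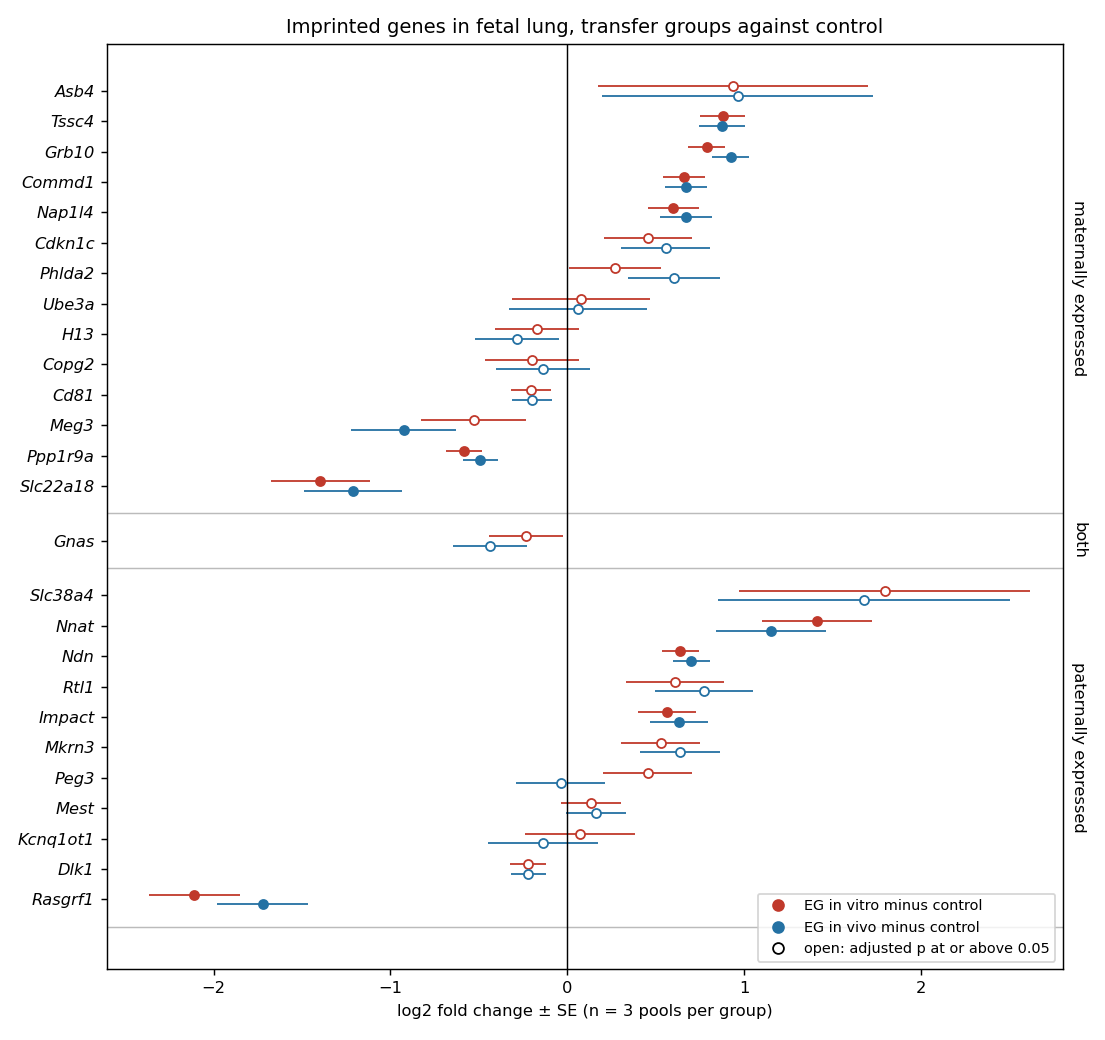
Log2 fold change against control for the 26 measured imprinted genes, with the SE of limma's fit over 3 pools per group, by the parental copy known to be expressed. Filled points have an adjusted p under 0.05, and the 10 genes filled in EG in vitro lie on the same side of 0 in EG in vivo.

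Among genes of growth signalling, Grb10 and Rasgrf1 changed in opposite directions. Grb10 encodes an adaptor that binds the insulin and IGF receptors and restrains growth, and it is expressed from the maternal copy in most tissues. Its log2 signal was 13.62, 13.41 and 13.50 in control pools, 14.26, 14.30 and 14.34 in the EG in vitro pools and 14.43, 14.46 and 14.43 in the EG in vivo pools. All 6 transfer pools lay above all controls, and they neared the highest value on the arrays, 15.11, where differences are compressed. Grb10 was higher by 0.79 ± 0.10 (SE) in EG in vitro (1.73-fold, limma adjusted p = 0.000451) and by 0.92 ± 0.10 in EG in vivo (1.90-fold, adjusted p = 0.000212). Its other 2 probes were higher by 0.83 and 1.08 in EG in vitro. In EG in vivo they gave 0.50, which missed the threshold at an adjusted p of 0.187, and 0.91, which passed. Its upstream promoter, printed above, was the most CpG-rich of the imprinted windows.

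Rasgrf1 encodes an exchange factor that activates Ras, and it is expressed from the paternal copy in neonatal brain. Its log2 signal was 9.72, 9.64 and 9.95 in controls, 7.54, 7.71 and 7.73 in the EG in vitro pools and 7.72, 7.70 and 8.71 in the EG in vivo pools. The transfer pools were all below the controls, and EG in vivo pool 3 was the highest of them. The difference was -2.11 ± 0.26 in EG in vitro (4.31-fold lower, limma adjusted p = 0.00032) and -1.72 ± 0.26 in EG in vivo (3.30-fold lower, adjusted p = 0.00106). Of all measured imprinted genes, Rasgrf1 had the largest fitted change. Its other kept probe was lower by a similar amount, with log2 differences of -1.90 and -1.60, both past the threshold. Without the 3 Xist-detecting pools its adjusted p in EG in vitro was 0.0586 at a difference of -2.07.

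Other genes of signalling and growth control did not pass. Cdkn1c encodes p57, a maternally expressed inhibitor of cyclin-dependent kinases that restrains fetal growth. Its log2 signal was 13.06, 13.02 and 13.61 in controls, 13.42, 13.60 and 14.05 in the EG in vitro pools and 13.56, 13.61 and 14.20 in the EG in vivo pools, with pool 3 highest in each group. The differences of 0.45 ± 0.25 and 0.56 ± 0.25 had limma adjusted p-values of 0.186 and 0.113, and with the replicate block these became 0.00515 and 0.00205. Within pools 1 and 2 alone the differences were 0.46 and 0.54. Phlda2, a maternally expressed gene whose protein limits placental growth, differed by 0.27 and 0.60, and only the EG in vivo difference passed with the block, at an adjusted p of 0.0114.

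Dlk1, a paternally expressed transmembrane protein related to Notch ligands, had log2 signals from 14.60 to 14.94. This is close to the highest value on the arrays, 15.11, where differences are compressed. Its brightest probe differed by -0.22 in both comparisons (limma adjusted p = 0.112 and 0.117), with transfer pools all below controls, and its second probe by -0.70 and -0.69 without passing. It passed in 7 of the alternative settings in each comparison, among them no background correction (adjusted p = 0.0245 and 0.0259) and the authors' processed values (0.0225 and 0.0239). Asb4, a maternally expressed adaptor of ubiquitin ligases, ranged from 4.66 to 7.06 in controls and from 5.62 to 7.81 in the transfer pools. Its differences of 0.94 and 0.96 had an SE of 0.77, and it did not pass (limma adjusted p = 0.375 and 0.366). It passed with the replicate block, at 0.0115 and 0.0106, with a block for the dim pools, at 0.00901 and 0.00813, and within pools 1 and 2 in EG in vitro, at 0.0454. Without control pool 3 its differences were 0.28 and 0.31.

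Among membrane proteins and transporters, Nnat rose, Slc22a18 fell, and Slc38a4 had a large difference that passed in some fits and not in others. Nnat encodes neuronatin, a small membrane protein expressed from the paternal copy and known from developing brain and endocrine tissue. Its log2 signal was 7.90, 8.29 and 7.02 in controls, 9.36, 9.17 and 8.92 in the EG in vitro pools and 9.09, 9.02 and 8.55 in the EG in vivo pools. All transfer pools exceeded all controls, and control pool 3 was the lowest. The rise was 1.41 ± 0.31 in EG in vitro (2.66-fold, limma adjusted p = 0.00697) and 1.15 ± 0.31 in EG in vivo (2.22-fold, adjusted p = 0.0185). The EG in vivo call was lost on leaving out EG in vivo pool 1 (adjusted p = 0.0644), EG in vivo pool 2 (0.0591) or with median scaling (0.0519). On leaving out control pool 2, or the 3 Xist-detecting pools, another Nnat probe was the brightest. Without control pool 2 the EG in vivo rise was 1.74.

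The tightest Nnat probe read 7.37, 7.54 and 7.24 in controls, 9.19, 9.13 and 9.18 in the EG in vitro pools and 9.09, 8.97 and 9.07 in the EG in vivo pools. Its rise of 1.78 and 1.66 was larger than that of the brightest probe. The third probe rose by 0.90 in EG in vitro and gave 0.44 in EG in vivo, which did not pass at an adjusted p of 0.141. Nnat lies within an intron of Blcap, itself imprinted in brain, whose probe moved the other way, by -0.71 in EG in vitro (adjusted p = 0.024) and by -0.54 in EG in vivo (adjusted p = 0.0699).

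Slc22a18 encodes an organic cation transporter-like protein, maternally expressed from the Kcnq1 cluster. Its log2 signal was 7.0, 6.94 and 7.65 in controls, 5.60, 5.88 and 5.92 in the EG in vitro pools and 5.67, 5.73 and 6.56 in the EG in vivo pools. No transfer pool reached the lowest control, and pool 3 was the highest in each group. The difference was -1.40 ± 0.28 in EG in vitro (2.63-fold lower, limma adjusted p = 0.00424) and -1.21 ± 0.28 in EG in vivo (2.31-fold lower, adjusted p = 0.00885). Without the 3 Xist-detecting pools it was -1.37 and -1.31 and no longer passed. Without background correction the differences shrank to -0.63 and -0.55, and with the authors' processed values to -0.61 and -0.54, all past the threshold and under 2-fold. A second Slc22a18 probe, annotated to the same transcript, was detected on no array.

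Slc38a4 encodes an amino acid transporter expressed from the paternal copy, best known from placenta and liver. Its log2 signal was 7.63, 8.30 and 5.85 in controls, 9.99, 9.48 and 7.70 in the EG in vitro pools and 9.47, 9.65 and 7.70 in the EG in vivo pools. Pool 3 was about 2 log2 units below the other pools of its group in every group, and each transfer pool lay above the control of its own number. The differences of 1.80 ± 0.82 and 1.68 ± 0.82 did not pass (limma adjusted p = 0.118 and 0.144). With the replicate block they passed at 0.000221 and 0.000336, and within pools 1 and 2 they were 1.77 and 1.59 and passed as well. Without control pool 3 they were 1.09 and 0.97 and did not pass. Without EG in vitro pool 3 the EG in vitro difference was 2.48 (0.0473), without EG in vivo pool 3 the EG in vivo difference was 2.30 (0.0662), and without the 3 Xist-detecting pools the EG in vitro difference was 0.62 (0.8).

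The liver markers were therefore read beside Slc38a4. Their summed signal was 129 to 266 in controls, 254 to 2924 in EG in vitro pools and 215 to 1034 in EG in vivo pools, and none of the 4 measured passed. Afp, the fetal liver protein that led them, was at 5.90, 7.11 and 4.78 in controls, 11, 8.88 and 6.51 in the EG in vitro pools and 7.42, 9.22 and 6.23 in the EG in vivo pools, while Alb and Fgb were not detected. The epithelial gene Epcam was likewise lowest in pool 3 of each group, at 4.80, 6.01 and 5.46. The part of liver RNA and of the dim pools in the Slc38a4 values was not tested. The maternally expressed tetraspanin gene Cd81 had differences of -0.20 in both comparisons and did not pass.

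**Figure D2:**
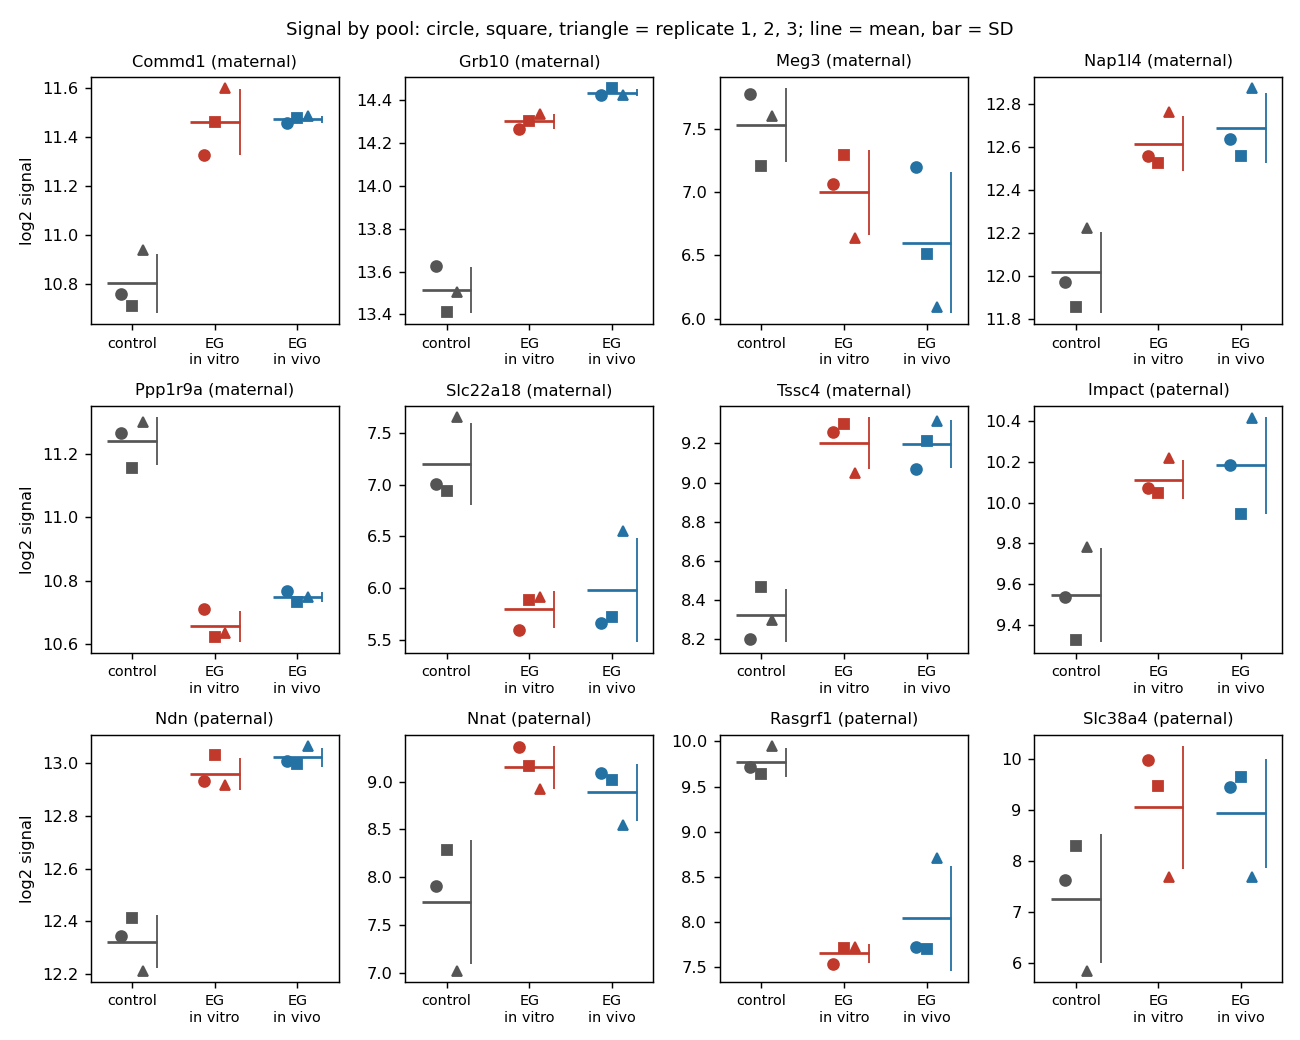
Log2 signal in each pool for the 11 imprinted genes that passed in at least 1 comparison and for Slc38a4, with the parental copy expressed in brackets. Symbols mark the replicate number, lines the group mean and bars the SD of 3 pools, and each panel has its own vertical scale that does not start at 0. The transfer pools lie clear of the controls in every panel except Meg3 and Slc38a4.

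Among genes acting on chromatin, RNA, protein synthesis and trafficking, 5 rose by similar amounts in both transfer groups. Tssc4, whose product takes part in assembling the spliceosome, was at 8.20, 8.47 and 8.30 in controls, 9.26, 9.30 and 9.05 in the EG in vitro pools and 9.07, 9.21 and 9.32 in the EG in vivo pools. It rose by 0.88 ± 0.13 in both (limma adjusted p = 0.00085 and 0.000943), with no overlap between controls and transfer pools. A second Tssc4 probe gave 0.68 and 0.73 without passing (adjusted p = 0.124 and 0.104). Nap1l4, a histone chaperone, was at 11.97, 11.86 and 12.22 in controls, 12.56, 12.53 and 12.77 in the EG in vitro pools and 12.64, 12.56 and 12.87 in the EG in vivo pools. It rose by 0.60 ± 0.15 and 0.67 ± 0.15 (adjusted p = 0.0109 and 0.00671). Both genes sit at the edges of the Kcnq1 cluster and are imprinted mainly in placenta, so they need not be imprinted in lung.

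Commd1, a regulator of copper handling and endosomal sorting that is imprinted in brain, was at 10.76, 10.71 and 10.94 in controls, 11.33, 11.46 and 11.60 in the EG in vitro pools and 11.46, 11.48 and 11.48 in the EG in vivo pools. It rose by 0.66 ± 0.12 and 0.67 ± 0.12 (limma adjusted p = 0.00237 and 0.00238). Each transfer pool was above each control. A second Commd1 probe gave 0.79 and 0.68 without passing.

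Ndn encodes necdin, a paternally expressed MAGE protein that restrains proliferation of neural precursors and is encoded in the Snrpn cluster. It was at 12.34, 12.41 and 12.21 in controls, 12.93, 13.03 and 12.92 in the EG in vitro pools and 13.01, 12.998 and 13.07 in the EG in vivo pools. The rise of 0.64 ± 0.10 and 0.70 ± 0.10 exceeded the spread within every group (limma adjusted p = 0.00157 and 0.00102). Impact, a paternally expressed inhibitor of the translation-control kinase GCN2, was at 9.54, 9.33 and 9.78 in controls, 10.07, 10.05 and 10.22 in the EG in vitro pools and 10.18, 9.94 and 10.42 in the EG in vivo pools. Its rise of 0.56 ± 0.16 and 0.63 ± 0.16 passed (adjusted p = 0.0246 and 0.0155). The EG in vitro call of Impact was lost on leaving out control pool 1 or 2 or any EG in vitro pool (adjusted p from 0.0555 to 0.0811), and the EG in vivo call without control pool 2 (0.0525).

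Ppp1r9a, which encodes the actin-binding scaffold neurabin and is maternally expressed in some tissues, moved the other way. It was at 11.27, 11.16 and 11.30 in controls, 10.71, 10.62 and 10.63 in the EG in vitro pools and 10.77, 10.73 and 10.75 in the EG in vivo pools. The difference was -0.58 ± 0.10 and -0.49 ± 0.10 (limma adjusted p = 0.0019 and 0.00488), small but wider than the gap between any 2 pools of a group. A second Ppp1r9a probe fell by 0.62 in EG in vitro (adjusted p = 0.0419) and gave -0.51 in EG in vivo, which did not pass (0.0851). With median scaling the EG in vivo difference of the brightest probe was -0.43 and did not pass (adjusted p = 0.0768).

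The remaining genes of protein turnover and trafficking did not pass through their brightest probe. Mkrn3, a paternally expressed ubiquitin ligase, differed by 0.53 and 0.64 (limma adjusted p = 0.0961 and 0.0523), with every transfer pool above every control, and passed in both comparisons with the block at 0.0153 and 0.00679. Mest, a paternally expressed enzyme of the alpha/beta hydrolase fold, differed by 0.13 and 0.16, with 95% intervals of -0.25 to 0.52 and -0.22 to 0.55. Its neighbour Copg2, a subunit of the vesicle coat, differed by -0.20 and -0.13. The ubiquitin ligase gene Ube3a and the signal peptide peptidase gene H13 had differences of 0.08 and -0.17 in EG in vitro and of 0.06 and -0.28 in EG in vivo.

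The non-coding RNAs and the retroelement-derived and zinc finger genes showed 1 call. Meg3, a maternally expressed long non-coding RNA of the Dlk1 cluster, was at 7.77, 7.21 and 7.60 in controls, 7.06, 7.29 and 6.64 in the EG in vitro pools and 7.19, 6.52 and 6.10 in the EG in vivo pools. The EG in vitro pools overlapped the controls, and the EG in vivo pools lay just below them. The difference was -0.53 ± 0.30 in EG in vitro, which did not pass (limma adjusted p = 0.194), and -0.93 ± 0.30 in EG in vivo (adjusted p = 0.0369). The EG in vivo call was lost on leaving out control pool 1 (0.116), control pool 3 (0.0812), EG in vitro pool 1 (0.0555), EG in vivo pool 2 (0.0971) or EG in vivo pool 3 (0.1), and with median scaling (0.0778). In all, 11 of 23 alternative settings lost this call. Among the further ones were pools 1 and 2 alone, no detection filter, only the 2 groups compared and change beyond 1.2-fold. A second Meg3 probe gave -0.43 and -0.67 without passing (adjusted p = 0.277 and 0.101), and its pools overlapped the controls. The difference between the transfer groups, 0.40 with a 95% interval of -0.28 to 1.08, was not called.

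Kcnq1ot1, the paternally expressed RNA that silences the Kcnq1 cluster on its own chromosome copy, differed by 0.07 and -0.14 with an SE of 0.31. These values came from a probe whose annotation named no transcript. The probe annotated to the Kcnq1ot1 transcript was detected on no array, and which transcript the kept probe reads was not analysed here. Rtl1, a paternally expressed gene derived from a retrotransposon and needed in placental vessels, was at 5.11, 4.98 and 5.39 in controls, 5.39, 5.76 and 6.15 in the EG in vitro pools and 5.69, 5.60 and 6.50 in the EG in vivo pools. It was detected on 3 of 9 control arrays and on all arrays of both transfer groups. Rtl1 thus passed the detection filter only through the transfer groups, where it was higher, and its own values are a description from which no test is read. It nevertheless remains in the counts over all measured imprinted genes, in those of the alternative settings and in the paternal medians. Peg3, a paternally expressed zinc finger gene, differed by 0.45 in EG in vitro and by -0.04 in EG in vivo, and neither passed. The EG in vitro difference passed with the replicate block, at 0.0363, and with arrays fitted with the pool as a random block, at 0.0462.

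Snrpn itself had no probe, but 3 kept probes carried the symbol of Snurf, the upstream reading frame of the same transcript. The brightest was at 10.61, 10.76 and 10.86 in controls, 11.12, 11.10 and 11.23 in the EG in vitro pools and 11.14, 11.03 and 11.45 in the EG in vivo pools. It rose by 0.41 and 0.46 (limma adjusted p = 0.0455 and 0.0288), in the same direction as its cluster neighbour Ndn. The other 2 kept Snurf probes differed by 0.39 and 0.14 in EG in vitro and by 0.32 and 0.28 in EG in vivo, without passing.

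The 8 genes that had probes but did not pass the detection filter were Ascl2, Magel2, Peg10, Peg12, Plagl1, Sgce, Usp29 and Zim1. Of these, Magel2, Sgce, Usp29 and Zim1 were detected on no array, and the others on at most 2 of 9 arrays of a group. Peg10, Ascl2 and Zim1 are best known from placenta or embryo, and the 4 trophoblast markers with probes were not detected in these pools either.

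Several genes had probes that disagreed. Of the 26 measured genes, 14 had several kept probes, and in none did 2 probes pass in opposite directions. In Gnas, H13 and Ube3a a dimmer probe passed where the brightest did not. Gnas encodes the stimulatory G protein alpha subunit and, from other promoters, further transcripts of either parental copy. Its brightest probe was at 11.96, 11.78 and 12.32 in controls, 11.50, 11.97 and 11.89 in the EG in vitro pools and 11.75, 11.76 and 11.24 in the EG in vivo pools, and differed by -0.23 and -0.44 without passing.

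A dimmer Gnas probe was at 7.21, 7.38 and 7.28 in controls, 6.15, 5.96 and 6.02 in the EG in vitro pools and 6.04, 6.36 and 5.88 in the EG in vivo pools. It fell by 1.245 and 1.195 on the log2 scale, with the transfer pools clear of the controls. The 8 kept Gnas probes ranged from -1.245 to 0.248 in EG in vitro and from -1.195 to 0.398 in EG in vivo. Which transcript each probe reads was not analysed here.

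One dim H13 probe rose by 0.80 and 0.85 (limma adjusted p = 0.0085 and 0.0067), while the 6 kept H13 probes reached down to -0.51 and -0.54. A dim Ube3a probe was at 5.99, 6.07 and 5.22 in controls, 6.78, 6.45 and 6.86 in the EG in vitro pools and 7.01, 6.76 and 6.81 in the EG in vivo pools. It rose by 0.94 and 1.10 (adjusted p = 0.0122 and 0.0059), and the other 2 kept Ube3a probes did not pass. Over all 55 kept probes, 13 were higher and 6 lower in EG in vitro, and 12 were higher and 7 lower in EG in vivo. Of all 22958 kept probes, 20.6% were higher and 19.9% lower in EG in vitro, and 20.3% and 18.9% in EG in vivo.

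**Figure D3:**
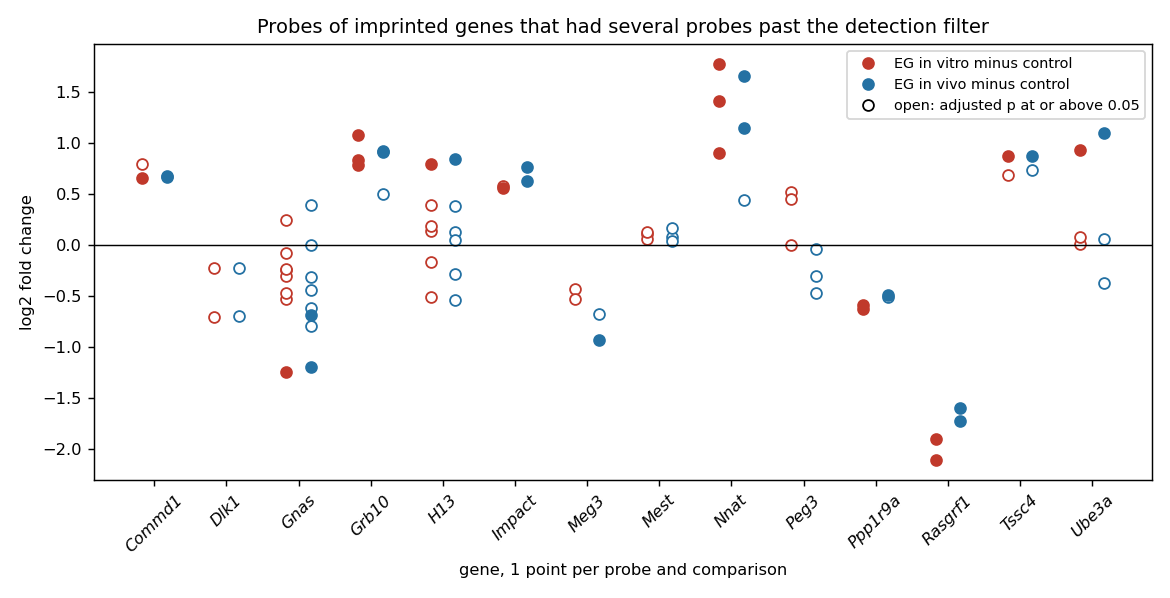
Log2 fold change against control for each kept probe of the 14 imprinted genes with several, 1 point per probe and comparison, filled where the adjusted p was under 0.05. Probes of Nnat, Grb10, Rasgrf1, Impact and Ppp1r9a lie on one side of 0, while those of Gnas and H13 spread over both sides.

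The second question was whether maternally and paternally expressed genes moved apart. Of the 14 maternally expressed genes, 4 were higher and 2 lower in EG in vitro, and 4 were higher and 3 lower in EG in vivo. Of the 11 paternally expressed genes, 3 were higher and 1 lower in each comparison. Both classes thus held calls in both directions, as did genes in general. The share called was 42.9% and 50% for maternally expressed genes and 36.4% in each comparison for paternally expressed genes. Of all genes, 44.8% were called in EG in vitro (21.8% higher, 23.0% lower) and 43.4% in EG in vivo (22.2% higher, 21.2% lower). The median log2 fold change was 0.17 and 0.31 for maternally expressed genes and 0.53 and 0.63 for paternally expressed genes, against 0.03 and 0.04 over all genes.

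By pool, the median deviation of the paternally expressed genes from the control mean was 0.10, 0.03 and -0.04 in controls, 0.51, 0.37 and 0.49 in the EG in vitro pools and 0.53, 0.40 and 0.21 in the EG in vivo pools. For maternally expressed genes it was -0.04, -0.09 and 0.08 in controls, 0.08, 0.13 and 0.05 in the EG in vitro pools and 0.30, 0.40 and -0.14 in the EG in vivo pools. The paternal medians of all 6 transfer pools lay above those of the controls, and the maternal medians overlapped them. The classes were not tested against each other. The medians depended on the processing: without background correction the paternal medians were 0.37 and 0.25, and without the detection filter 0.23 and 0.13. A stricter filter asked for a detection p under 0.01 on all 9 arrays of a group, which Rtl1 did not reach. The paternal median in EG in vivo was then 0.40. Without genes imprinted mainly in placenta or brain the maternal medians were 0.27 and 0.56. Leaving out the 3 Xist-detecting pools turned the maternal median in EG in vitro to -0.07.

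**Figure D4:**
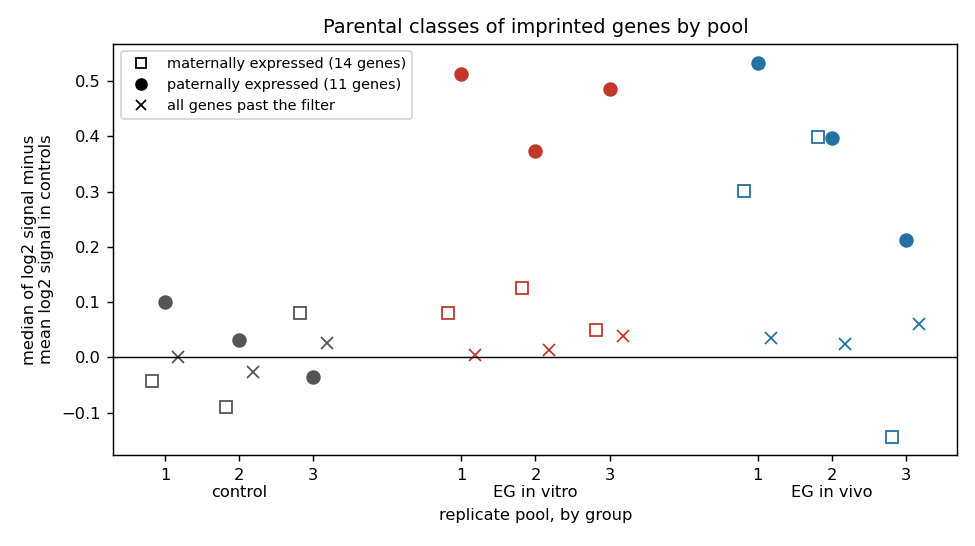
Median over genes of the log2 signal minus its mean in controls, by pool, for the 14 maternally and 11 paternally expressed genes and for all genes past the filter. The paternal medians of the transfer pools lie between 0.21 and 0.53, above the controls, while the maternal median of EG in vivo pool 3 is -0.14.

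Genes of one imprinted cluster did not all move together. Of the 7 measured genes of the Kcnq1 cluster, Tssc4 and Nap1l4 rose, Slc22a18 fell, and Cdkn1c, Phlda2, Kcnq1ot1 and Cd81 did not pass, in both comparisons. Of the 3 genes of the Snrpn cluster, Ndn rose and Mkrn3 and Ube3a did not pass. Of the 3 genes of the Dlk1 cluster, Meg3 was lower in EG in vivo, Dlk1 did not pass, and no test is read for Rtl1. Of the measured genes next to Sgce, Ppp1r9a fell and Asb4 did not pass.

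The third question was whether in vitro derivation added anything to transfer, as asked by setting EG in vitro against EG in vivo. None of the 26 genes passed in limma's fit, and none had an unadjusted p under 0.05 through its brightest probe. Over all genes 0 passed, and 1.28% had an unadjusted p under 0.05. The differences of the brightest probes ranged from -0.39 in Rasgrf1 to 0.49 in Peg3, whose unadjusted p was 0.0856. A dimmer Peg3 probe differed by 0.83 (limma unadjusted p = 0.0264), with pools that did not overlap, and did not pass after adjustment. That probe was detected on 6 control arrays, 9 EG in vitro arrays and 3 EG in vivo arrays. The third kept Peg3 probe differed by 0.465. Through the brightest probes, the pools did not overlap for 2 of 26 genes, Grb10 and Ppp1r9a, both lower in EG in vitro, against 5.42% of all genes.

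The intervals show what this design could not see. The 95% interval of the difference was -0.37 to 0.10 for Grb10, -0.30 to 0.18 for Ndn and -0.29 to 0.30 for Tssc4. It was wider for Rasgrf1, at -0.98 to 0.21, and for Nnat, at -0.45 to 0.97. For Slc38a4 it ran from -1.76 to 2.00 and for Asb4 from -1.78 to 1.72, so that a difference of 3-fold in either direction was compatible with their pools.

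The spread between pools was wider for imprinted genes than for genes in general in each group, a difference that was not tested. The median SD over the measured genes was 0.25 in controls, 0.19 in EG in vitro pools and 0.31 in EG in vivo pools, and over all genes it was 0.21, 0.17 and 0.21 in the same order. Slc38a4 had the largest SD in every group, at 1.27, 1.204 and 1.08. The median SD between technical arrays of a pool was 0.10 for imprinted genes and 0.12 for all genes.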

How the data were processed

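Total RNA was Trizol-extracted, made into biotinylated cRNA and hybridised to Illumina bead arrays, per the labels' protocols. The authors deposited non-normalized intensity per probe and array, with no background subtracted (lowest signal 84), and a detection p-value per probe, per the file headers. The authors' processed intensity matrix was used as an alternative only. The sources used here name no scanner software or build.

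The neqc function of limma 3.58.1 (R 4.3.3) corrected the background, quantile normalized the arrays and took log2, with an offset of 16. The filter left 22958 probes, the 3 technical arrays of a pool were averaged, and 1 model over all 9 pools gave 3 contrasts (lmFit and eBayes, with residual degrees of freedom of 6 and a prior of 2.41). P-values were adjusted by Benjamini-Hochberg over all kept probes, and two-sided. The kept probe with the highest mean stood for a gene. Of the probes, 34885 had 1 gene symbol, 18 several and 10378 none, and none was named from several. The number of pools limits the precision.

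The genes, lists and parental classes were chosen with earlier results of these data known. By rule all 37 genes were accounted for, and pool values given for those called with at least a 2-fold change. Pool values of the other called genes, of Slc38a4, Cdkn1c, Snurf, Afp and of disagreeing probes were added after values had been seen. Promoters came from RefSeq (GRCm38.p6). Same-numbered pools of the groups deviated together, with correlations of 0.503 to 0.827. EG in vitro pool 1 matched another number better, at 0.774 against 0.583 with controls and 0.697 against 0.503 with EG in vivo. No label pairs the numbers, and the main fit held group only, so its p-values take no pairing into account. The fit with the replicate block is given as an alternative where it changed a call.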

Additional observations from a re-analysis of the deposited data

How the results depend on the processing

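Of the measured genes, Rtl1 and Asb4 lay near background and were not detected on every array. Slc22a18 was detected on every array but was also low in the transfer pools, at 5.60 to 6.56, where Rtl1 was at 5.39 to 6.50. All alternatives of the transfer-group comparison gave 0 calls. Counts of called imprinted genes (in EG in vitro 10, 7 higher and 3 lower; in EG in vivo 11, 7 higher and 4 lower) changed as follows. The replicate block gave 16 (13 higher) and 17 (13 higher), a block for the dim pools 16 (12 higher) and 18 (13 higher), pools 1 and 2 alone 11 and 12 higher, and arrays with the pool as a random block 11 higher in EG in vitro and 17 (11 higher) in EG in vivo. Of all genes, 60.0% and 58.4% were called with the replicate block, 62.2% and 60.6% with the block for the dim pools, 57.3% and 55.8% in pools 1 and 2, and 50.0% and 48.9% with the random block. Lower calls in EG in vivo were 2 with median scaling and 2 for change beyond 1.2-fold. Of all genes, 41.7% and 28.6% were called in either direction there. Without the 3 Xist-detecting pools, a setting chosen after seeing the data, calls were 1 (1 higher, 0 lower) and 5 (4 higher, 1 lower), imprint maintenance genes 3 and 3, and other imprinted genes 4 in EG in vitro. Leaving out 1 pool in turn gave 9 to 12 calls (6 to 9 higher, 3 lower) in EG in vitro and 9 to 11 (6 to 8 higher, 3 to 4 lower) in EG in vivo, 7 to 8 and 6 to 8 maintenance genes, and 10 to 11 and 9 to 11 other imprinted genes. The share of all genes called also moved, from 36% to 48.3% in EG in vitro and from 35.3% to 43.1% in EG in vivo. The maternal median ran from 0.15 to 0.30 in EG in vitro and from 0.16 to 0.40 in EG in vivo in those settings, and the paternal median from 0.42 to 0.60 and from 0.45 to 0.63. Without background correction the maternal median in EG in vivo was 0.16 and the paternal medians 0.37 and 0.25. With the authors' processed values these were 0.15, 0.36 and 0.24, with no filter 0.07, 0.23 and 0.13, and with a stricter filter 0.059 and, for the paternal median in EG in vivo, 0.40. Without genes imprinted mainly in placenta or brain the maternal median in EG in vivo was 0.56, and without the 3 Xist-detecting pools it was -0.073 in EG in vitro. Single genes that changed sign were not called in the full data. With pools 1 and 2 alone, EG in vitro gave 0.012 for H13, -0.003 for Mest and 0.00 for Ube3a, and EG in vivo 0.27 for Kcnq1ot1, 0.17 for Peg3 and -0.067 for Ube3a. The mean of a gene's probes gave 0.14 and 0.10 for H13. Median scaling gave 0.024 for Peg3 in EG in vivo. Without the 3 Xist-detecting pools, Asb4 was at -0.24 and Ube3a at -0.41 in EG in vitro, and Peg3 at 0.012 in EG in vivo. Leaving out 1 pool in turn gave ranges of -0.33 to 0.12 for H13, -0.12 to 0.22 for Kcnq1ot1, -0.047 to 0.23 for Mest and -0.29 to 0.37 for Ube3a in EG in vitro. In EG in vivo the ranges were -0.41 to 0.11 for Copg2, -0.44 to 0.003 for H13, -0.33 to 0.21 for Kcnq1ot1, -0.015 to 0.26 for Mest, -0.29 to 0.16 for Peg3 and -0.31 to 0.34 for Ube3a. The causes of these shifts were not tested.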

Other observations

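Imprinted genes outside the 37 were read from a list of 40, of which 19 were measured. In EG in vitro 3 were higher, namely Igf2, Dcn and Dhcr7, and 8 were lower. In EG in vivo the counts were 3 and 7. Their median log2 fold change was -0.38 and -0.40, where the 26 measured genes of the main list had 0.36 in both. Of all genes, 44.8% were called in EG in vitro and 43.4% with transfer of in vivo blastocysts. Qpct, which encodes glutaminyl cyclase, was at 9.26, 8.93 and 9.35 in controls, 6.45, 6.45 and 6.98 in EG in vitro and 6.64, 6.67 and 7.31 in EG in vivo. It fell by 2.56 and 2.31 (limma adjusted p = 6.3e-05 and 0.000123), more than any of those 26. Pon3, a paraoxonase gene of the Sgce cluster, was at 10.63, 10.88 and 9.83 in controls, 8.71, 8.60 and 7.92 in EG in vitro and 8.52, 8.71 and 8.34 in EG in vivo, and fell by 2.04 and 1.92. Its neighbour Pon2 fell by 0.93 and 0.80. Tspan32 of the Kcnq1 cluster, which is among the lower genes counted, read lower by 1.32 and 1.36. It was detected on all 9 control arrays, on 4 EG in vitro arrays and on 3 EG in vivo arrays. Tspan32 passed the detection filter only through the controls, where it was higher, so no test is read from it. The growth factor gene Igf2 rose by 0.63 and 0.68. Its transfer pools, at 14.66 to 14.76, were close to the highest value on the arrays, 15.11, where differences are compressed.

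Of 17 genes that keep methylation at imprinted regions, 13 were measured. In EG in vitro 7 were higher and 0 lower, against 21.8% and 23.0% of all genes. In EG in vivo 8 were higher and Arid4a lower, against 22.2% and 21.2% of all genes. Both counts of higher genes include Dnmt3l, detected on 1 of 9 control arrays and on all arrays of both transfer groups. Dnmt3l passed the detection filter only through the transfer groups, where it was higher, so no test is read from it. Zfp57 had no probe under its symbol, and Dppa3, Dnmt3a and Hells were detected on no array. Uhrf1, which brings DNMT1 to replicating DNA, was at 10.62, 10.34 and 9.62 in controls, 13.15, 12.99 and 13.04 in EG in vitro and 13.09, 13.11 and 12.94 in EG in vivo. It rose by 2.87 and 2.86 (limma adjusted p = 3.5e-05 and 4.2e-05). The maintenance methyltransferase gene Dnmt1 rose by 1.91 and 1.87, and Trim28, the corepressor recruited by ZFP57, by 1.38 and 1.26. The cell cycle genes moved with them: all 5 measured rose, by 2.10 to 3.37 in EG in vitro. Uhrf1 and Dnmt1 are known to be expressed mainly in dividing cells, and the part of dividing cells in their rise was not tested.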
